A study of Mus musculus with 30 samples.

Results

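The expression of 10 genes of transforming growth factor beta (TGF-beta) and bone morphogenetic protein (BMP) signalling was followed across 7 groups of mouse bone marrow stem and progenitor cells. They were the ligand gene Tgfb1, the receptor genes Tgfbr1, Tgfbr2 and Bmpr2, the inhibitor genes Smad6, Smad7 and Skil, and Id1, Id2 and Id3, which encode the ID proteins. The members were taken by gene symbol, from a set proposed with earlier results of these data known, and are 10 of the 46113 genes in the count files, of which 21989 have exons. Each symbol matched 1 entry, and 9 of the 10 members had enough reads to be tested in every comparison. Id3 had too few and is described by its values.

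The 30 RNA libraries came from sorted bone marrow, with 100 cells in each, and the donor mice were of the C57BL/6 strain and 8 to 10 weeks old. Haematopoietic stem cells (HSCs) were gated as lineage-negative cells with CD150 and EPCR and without CD48, and haematopoietic progenitor cells (HPCs) as cells with the same markers that also carried CD48. In the 5-FU experiment HSCs came from untreated mice (n = 4) or from mice given 5-fluorouracil (5-FU), a drug that kills dividing cells, 6 days (n = 4) or 10 days (n = 6) earlier. In the culture experiment HSCs of untreated mice were sequenced uncultured (n = 4) or after 1 day in culture (n = 4). In the CD48 experiment CD48- HSCs (n = 4) and CD48+ HPCs (n = 4) were both taken 10 days after 5-FU, so this comparison holds no untreated cells. No allele or transgene is named in the labels. The labels do not say whether the libraries of a group came from separate animals, so the p-values measure the spread between libraries, part of which may be technical.

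TGF-beta and BMP ligands bind pairs of type II and type I receptor kinases. TGFBR2 with TGFBR1 receives TGF-beta, BMPR2 receives BMPs, and the type I receptor then phosphorylates SMAD proteins that carry the signal to the nucleus. SMAD6 and SMAD7 are inhibitory SMADs that block the receptors, and SKIL (SnoN) represses SMAD target genes in the nucleus; SMAD7 and SKIL transcripts are also known targets of TGF-beta, and SMAD6 and the ID genes known targets of BMP. ID proteins bind E proteins, a class of basic helix-loop-helix factors, and keep them off DNA. In HSCs, TGF-beta is known as a signal for quiescence.

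The libraries held 5.21 to 12.2 M exon reads. Levels below are shares of the library's exon reads in CPM (counts relative to library size), scaled by the TMM method over all 30 libraries, with the SD over libraries. As shares, they do not tell amounts per cell, and a smaller number of cells of a type and less RNA per cell cannot be told apart. All 12 HSC markers looked for, among them Procr, Slamf1, Kit and Mecom, were detected in all 30 libraries, and their summed level was 5911 to 6685 CPM in untreated, 3365 to 3444 CPM in day-6, 3136 to 4307 CPM in day-10, 5576 to 6041 CPM in uncultured and 2911 to 3164 CPM in cultured HSCs. In 7 libraries the summed markers of macrophages, granulocytes and monocytes, or stromal cells were more than 2.5 times their group median: untreated replicate 3, day-6 replicate 1, day-10 replicate 3, uncultured replicate 1, CD48- HSC replicates 3 and 4 and CD48+ HPC replicate 3. Summed erythroid markers were at 2527 to 6463 CPM in untreated against 299 to 431 CPM in day-6 HSCs and at 80.5 to 4843 CPM in uncultured against 454 to 615 CPM in cultured HSCs. Erythroid sums were not used to pick these 7 libraries, and 3 libraries were over 2.5 times their group median in them: CD48- HSC replicate 3 with 9553 CPM, the highest of all 30 libraries, against 250 to 310 CPM in the others of its group, day-10 replicate 1 (1443 CPM) and uncultured replicate 3 (4843 CPM). Member calls that changed without any one of these 3 are given with the member. Intron reads took 56.3 to 66.4% of reads on genes as group means, with 65.1% in untreated, 57.5% in day-6 and 56.3% in cultured HSCs. Day 6 and day 10 were both compared with the same untreated libraries.

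The upstream windows of 4 members are printed first, because Tgfb1 is the member that rose in the most comparisons, Tgfbr1 and Tgfbr2 are receptor partners whose mRNAs moved in opposite directions at day 6, and Id2 is the ID gene that was higher in CD48+ HPCs. Each holds the 250 bases before the transcription start of RefSeq on GRCm38.p6, 5′ to 3′ on the gene's strand. Capitals mark GTCT or its reverse complement AGAC, the core letters of the SMAD box, and GGCGCC, a GC-rich SMAD element.
Tgfb1, chr7:25686752-25687001, plus strand: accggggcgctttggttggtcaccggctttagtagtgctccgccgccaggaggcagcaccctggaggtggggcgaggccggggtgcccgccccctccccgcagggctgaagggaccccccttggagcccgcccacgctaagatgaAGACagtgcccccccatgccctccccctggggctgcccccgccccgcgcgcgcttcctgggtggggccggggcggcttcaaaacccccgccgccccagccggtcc
Tgfbr1, chr4:47352972-47353221, plus strand: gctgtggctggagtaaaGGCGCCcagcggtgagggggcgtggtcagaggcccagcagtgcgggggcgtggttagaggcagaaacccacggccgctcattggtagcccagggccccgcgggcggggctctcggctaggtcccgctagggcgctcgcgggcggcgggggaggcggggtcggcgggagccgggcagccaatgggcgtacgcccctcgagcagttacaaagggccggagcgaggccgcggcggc
Tgfbr2, chr9:116175364-116175613, minus strand: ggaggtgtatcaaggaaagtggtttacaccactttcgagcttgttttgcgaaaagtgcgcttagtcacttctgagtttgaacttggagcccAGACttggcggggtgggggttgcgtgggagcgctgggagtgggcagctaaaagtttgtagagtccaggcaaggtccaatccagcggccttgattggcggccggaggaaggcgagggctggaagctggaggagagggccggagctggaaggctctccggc
Id2, chr12:25096093-25096342, minus strand: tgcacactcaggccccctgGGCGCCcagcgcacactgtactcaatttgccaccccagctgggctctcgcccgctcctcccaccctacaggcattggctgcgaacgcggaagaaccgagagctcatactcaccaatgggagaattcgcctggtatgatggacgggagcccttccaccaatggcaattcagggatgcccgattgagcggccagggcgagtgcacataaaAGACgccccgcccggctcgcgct
The Tgfb1 window is 75.2% G and C, that of Tgfbr1 74.8%, that of Tgfbr2 58.4% and that of Id2 62.8%. The table holds another start of Tgfbr1, at 47386216 on chromosome 4 inside the gene; its window is 52.8% G and C, holds 2 GTCT or AGAC and no GGCGCC, and is not printed because the printed one lies at the gene's first base. Of the printed windows Tgfb1, Tgfbr2 and Id2 hold 1 GTCT or AGAC each, and Tgfbr1 and Id2 hold 1 GGCGCC each. Over all 32851 windows of this length in the table, 82.86% hold GTCT on either strand and 9.586% hold GGCGCC. The full palindrome GTCTAGAC is in 0.1674% of all windows and in none of the 8 windows found for 7 members, and neither are the E-box letters CAGATG (14.44% of windows, both strands) or CACGTG (6.021%). A match describes these letters only.

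At 6 days after 5-FU, Id1, Tgfb1 and Tgfbr1 had risen and Smad6, Smad7, Skil, Tgfbr2 and Bmpr2 had fallen against untreated HSCs. These were 8 of 9 tested members past an adjusted p of 0.05 (edgeR quasi-likelihood test with Benjamini-Hochberg adjustment over all genes, as for every adjusted p below), where 51.4% of all 12884 genes tested passed. The libraries of both groups did not overlap for 7 members, against 48.5% of all genes. The median log2 change of the 9 was -0.53, and that of all genes tested was -0.036. By day 10 Id1, Tgfb1 and Tgfbr1 were still above and Smad6 and Bmpr2 below untreated, which made 5 of 9 called against 38.0% of all genes, and 4 of 9 without the 7 libraries named above. Here 4 members did not overlap, against 23.6%, and the median of the members was -0.16 against -0.0044. From day 6 to day 10 Smad7, Skil, Tgfbr2 and Bmpr2 rose and Id1 fell, 5 of 9 called against 30.7%. The libraries did not overlap for 5 members, against 22.6% of all genes, and the median was 0.26 against -0.016. Among these 5, Tgfb1 was barely apart, with its nearest libraries at 229.20 and 229.25 CPM. In this step Id2 (-0.49, adjusted p = 0.235), Smad6 (0.45, adjusted p = 0.194) and Tgfbr1 (-0.024, adjusted p = 0.87) did not pass.

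After 1 day of culture Id1, Id2 and Tgfb1 rose and Smad6, Smad7, Tgfbr2 and Bmpr2 fell. That was 7 of 9 called where 67.6% of 12384 genes passed, so the members' share was near that of all genes. In 6 members the libraries did not overlap, against 62.0% of all genes, and the median of the members was -0.43 against -0.017. CD48+ HPCs had more Id2 and Tgfb1 and less Smad7, Skil and Bmpr2 than CD48- HSCs. That was 5 of 9 called against 26.5% of 12717 genes, with 5 not overlapping against 27.1% and a median of -0.16 against -0.011. The summed HSC markers were at 3989 to 4714 CPM in CD48- HSCs and 2383 to 2897 CPM in CD48+ HPCs. The 4 megakaryocyte markers with exons, most of their sum from Vwf, which HSCs also express, were at 714 to 1094 CPM in CD48- HSCs and 185 to 223 CPM in CD48+ HPCs, with 3 or 4 of them above 0 in each library and Gp6 the one at 0. The part of these shifts in the member changes was not tested. The count of all genes called in this comparison fell from 3369 to 2139 without HPC replicate 1.

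**Figure D1:**
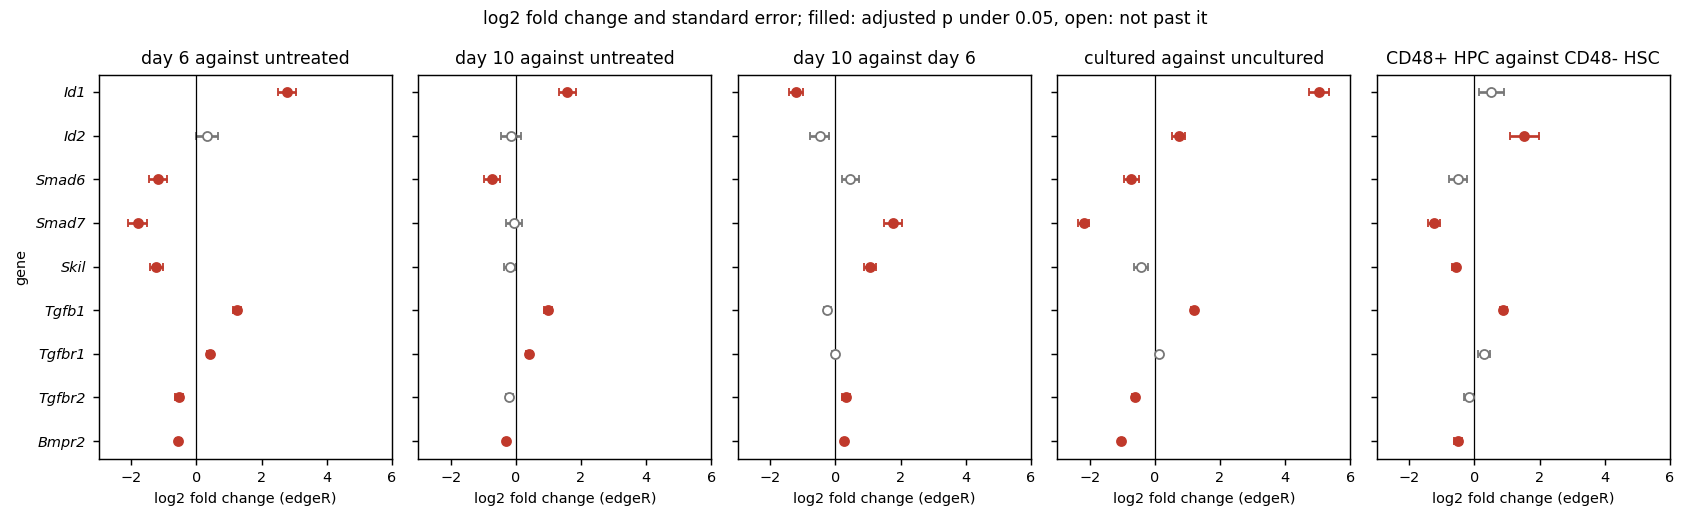
Log2 fold change (x axis, edgeR) of the 9 tested members (y axis) in the 5 comparisons, with the standard error as the whisker; filled points passed an adjusted p of 0.05 and open points did not. Tgfb1 lies right of 0 in the 4 comparisons in which it passed, and Id1 reaches 5.04 in culture.

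Tgfb1 encodes the ligand TGF-beta 1, which is secreted in a latent form. The gene (identifier 21803) spans chromosome 7, 25687002 to 25705077, in mm10, the build used for all gene positions below. Untreated HSCs held 128, 100.3, 81.9 and 90.0 CPM, and day-6 HSCs held 235, 248, 235 and 229, so every day-6 library lay above every untreated one. The mean rose from 100.2 ± 20.3 to 237 ± 8.02 CPM (SD, n = 4 each), a log2 change of 1.24 (SE 0.12, adjusted p = 1.71e-06). The 6 day-10 libraries ran from 171 to 229 (median 202), again above all untreated libraries, with a log2 change of 0.99 (SE 0.12, adjusted p = 1.92e-05). Day-10 libraries lay below all day-6 ones, but barely, with 229.20 CPM in day-10 replicate 1 and 229.25 CPM in day-6 replicate 4. That difference of -0.25 did not pass (adjusted p = 0.0967), and it passed without day-10 replicate 1 (-0.32, adjusted p = 0.0377) and with both groups fitted alone (-0.25, adjusted p = 0.0452).

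In culture Tgfb1 went from 142, 167, 167 and 155 CPM in the uncultured libraries to 345, 321, 367 and 384 in the cultured ones, with no overlap and a log2 change of 1.18 (SE 0.079, adjusted p = 5.69e-08). Tgfb1 was also higher in CD48+ HPCs, at 388, 317, 296 and 331 CPM, than in CD48- HSCs, at 177, 218, 153 and 175. That change of 0.89 (SE 0.12, adjusted p = 0.000532) was again without overlap. Tgfb1 thus rose in 4 of the 5 comparisons. The untreated and uncultured groups did not overlap, since all uncultured libraries (142 to 167 CPM) lay above all untreated ones (81.9 to 128), although both were HSCs of untreated mice in separate experiments. Levels from different experiments are therefore given side by side without a test.

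Macrophages also express Tgfb1. The summed level of 12 macrophage markers was 46.8 to 73.8 CPM in untreated, 61.5 to 587 in day-6, 130 to 328 in day-10, 98.3 to 391 in CD48- and 196 to 1378 CPM in CD48+ libraries, with 11 or 12 markers above 0 in each of these. In culture the sum went from 52.3 to 63.5 CPM to 8.81 to 13.7 CPM, and Cd5l, C1qa, C1qb, Adgre1, Marco and Vcam1 were at 0 in all 4 cultured libraries. Without the 7 libraries named above, Tgfb1 changed by 1.16 at day 6, 0.88 at day 10 and 0.81 in HPCs on the log2 scale, and all passed. The remaining HPC libraries held macrophage sums of 196 to 527 CPM against 98.3 and 121 CPM in the remaining CD48- HSC libraries, and the part of macrophages in the Tgfb1 change after 5-FU and in HPCs was not tested.

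Tgfbr2 encodes the type II receptor that binds TGF-beta (identifier 21813, chromosome 9, 116087695 to 116175363). Its libraries held 119.8, 124, 140.2 and 122 CPM in untreated and 106, 88.4, 80.9 and 74.4 CPM in day-6 HSCs, without overlap. The log2 change was -0.53 (SE 0.13, adjusted p = 0.00248), and in intron reads, which are described below, it was -0.32 and did not pass (adjusted p = 0.0938). Day-10 libraries ran from 87.8 to 136 (median 106) CPM, between and across both groups. The change of Tgfbr2 from untreated to day 10 was -0.20 (SE 0.11, adjusted p = 0.169), which did not pass. Its rise from day 6 to day 10, 0.33 (SE 0.12, adjusted p = 0.0433), was lost when any one of 8 of the 10 libraries was left out, with adjusted p up to 0.143, and also with unique exon reads, without a filter on low counts and with both groups fitted alone (adjusted p from 0.0522 to 0.0692). Cultured HSCs held 70.0, 64.3, 72.0 and 69.2 CPM against 103, 114, 113 and 101 in uncultured ones, a log2 change of -0.63 (SE 0.076, adjusted p = 1.13e-05) with no overlap. In the CD48 experiment the groups overlapped, at 138, 103, 161 and 115 CPM in HSCs and 108, 106, 147 and 101 in HPCs, and the change of -0.16 (SE 0.15, adjusted p = 0.485) did not pass.

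Tgfbr1 encodes the type I receptor that pairs with TGFBR2 (identifier 21812, chromosome 4, 47353222 to 47414926). Of its exon reads 94.0% were unique to 1 place in the genome. Its group means ran from 55.2 CPM in untreated HSCs to 78.0 CPM in CD48+ HPCs. Untreated libraries held 56.8, 54.4, 47.5 and 62.1 CPM and day-6 libraries 78.1, 85.3, 70.3 and 61.0, so that day-6 replicate 4 lay within the untreated range. The rise was 0.42 (SE 0.10, adjusted p = 0.0037), and 0.64 in intron reads (adjusted p = 0.000162). Day-10 libraries ran from 68.9 to 78.9 (median 71.8) CPM, above all untreated ones, with a log2 change of 0.39 (SE 0.096, adjusted p = 0.00507). Between uncultured and cultured HSCs the change was 0.12 (SE 0.10, adjusted p = 0.293), and between CD48- HSCs and CD48+ HPCs it was 0.29 (SE 0.19, adjusted p = 0.285), and neither passed. In intron reads Tgfbr1 rose in culture (0.41, adjusted p = 0.0118).

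Bmpr2 encodes the type II receptor of BMPs (identifier 12168, chromosome 1, 59764270 to 59878081), and in CPM it was the receptor gene with the most reads. Untreated HSCs held 259, 289, 283 and 279 CPM and day-6 HSCs 186, 201, 197 and 167, without overlap and with a log2 change of -0.56 (SE 0.076, adjusted p = 2.28e-05). At day 10 its libraries ran from 206 to 249 (median 225) CPM, below all untreated and above all day-6 libraries. The log2 change was -0.30 (SE 0.069, adjusted p = 0.00331) against untreated and 0.26 (SE 0.07, adjusted p = 0.0109) against day 6, and the latter did not pass without the libraries with most transcripts of other cells (0.23, adjusted p = 0.0599). In intron reads the day-10 change against untreated was 0.017 and did not pass (adjusted p = 0.933). CD48- HSCs, the other set taken at day 10, held 241 to 318 CPM, across the untreated range. The largest of the 5 changes of Bmpr2 was its fall in culture, from 266, 243, 260.5 and 272 CPM to 122, 146, 110.3 and 126, a log2 change of -1.03 (SE 0.083, adjusted p = 3.07e-07). CD48+ HPCs held 166, 193, 223 and 201 CPM against 254, 241, 318 and 301 in CD48- HSCs, again without overlap, and the change was -0.50 (SE 0.12, adjusted p = 0.01), which did not pass in intron reads (-0.36, adjusted p = 0.0709).

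Smad7, the inhibitory SMAD that turns off TGF-beta receptors (identifier 17131, chromosome 18, 75367365 to 75395935), fell at day 6 and overlapped the untreated range again at day 10. Untreated libraries held 79.9, 41.3, 52.9 and 70.8 CPM, whereas day-6 libraries held 18.1, 18.4, 15.2 and 18.6, close together and below every untreated one. The change was -1.80 (SE 0.29, adjusted p = 0.000105). Day-10 libraries were widely spread, from 33.9 to 88.4 (median 60.1) CPM, above all day-6 libraries and across the untreated range. The change from day 6 was 1.76 (SE 0.27, adjusted p = 0.000353), and that from untreated was -0.047 (SE 0.25, adjusted p = 0.899), with a sign that differed between alternative settings.

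Smad7 also fell in culture, from 63.7, 106, 87.8 and 83.7 CPM to 22.8, 16.6, 16.6 and 17.4, a log2 change of -2.19 (SE 0.16, adjusted p = 1.11e-07). It was also lower in CD48+ HPCs, with 33.5, 47.7, 30.9 and 40.7 CPM, than in CD48- HSCs, with 93.3, 77.8, 124 and 68.8. None of these libraries overlapped, and the change was -1.25 (SE 0.19, adjusted p = 0.00113). Smad7 had its lowest group means in day-6 and cultured HSCs, at 17.6 and 18.3 CPM, and these 2 groups overlapped. Endothelial cells also express Smad6, Smad7 and Bmpr2. The summed level of 7 endothelial markers, most of it Tie1, which HSCs also express, was 587 to 727 CPM in untreated, 483 to 518 in day-6 and 410 to 590 in day-10 libraries, 518 to 590 in uncultured and 267 to 349 in cultured ones, and 538 to 581 in CD48- HSCs and 269 to 309 in CD48+ HPCs. At least 6 of the 7 were above 0 in every library, and Cdh5, a defining endothelial gene, was at 0 to 6.26 CPM; their part in the levels of these members was not tested.

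Smad6, the inhibitory SMAD that acts mainly on BMP receptors (identifier 17130, chromosome 9, 63953076 to 64022087), had few reads, 36 to 140 per library. Untreated libraries held 14.6, 10.5, 12.3 and 20.1 CPM and day-6 libraries 5.73, 7.77, 5.43 and 6.30, without overlap. The log2 change at day 6 was -1.19 (SE 0.28, adjusted p = 0.0022). Day-10 libraries ran from 6.29 to 14.0 (median 7.62) CPM and overlapped the untreated ones. The change of -0.73 (SE 0.24, adjusted p = 0.0276) did not pass when untreated replicate 1 or 4, or day-10 replicate 1, 4 or 6, was left out, with adjusted p from 0.0540 to 0.128, nor without the libraries with most transcripts of other cells (adjusted p = 0.0580), nor with the replicate number as a block (adjusted p = 0.0845). Uncultured libraries held 9.26, 15.0, 17.8 and 14.3 CPM and cultured ones 10.7, 8.44, 7.04 and 7.46, which overlap in uncultured replicate 1. Their change of -0.72 (SE 0.23, adjusted p = 0.0144) had an adjusted p of 0.0519 without uncultured replicate 3 and 0.0510 without cultured replicate 3. In the CD48 experiment Smad6 was at 8.83 ± 2.60 CPM in HSCs and 6.18 ± 1.19 in HPCs (SD, n = 4 each), a change of -0.51 (SE 0.28, adjusted p = 0.19) that did not pass, and that passed without CD48- HSC replicate 4 (-0.70, adjusted p = 0.0437).

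Skil, the nuclear repressor of SMAD target genes (identifier 20482, chromosome 3, 31094804 to 31122923), also fell at day 6 and rose from day 6 to day 10. Untreated libraries held 47.2, 76.2, 105 and 51.9 CPM, with the highest value in replicate 3, in which granulocyte and monocyte markers summed to 1531 CPM against a group median of 38.6; their part in the Skil level was not tested. Day-6 libraries held 29.2, 32.5, 33.1 and 24.1 CPM, below all others of the experiment, a change of -1.23 (SE 0.21, adjusted p = 0.00016). Day-10 libraries ran from 49.7 to 71.2 (median 62.2) CPM, a rise from day 6 of 1.05 (SE 0.19, adjusted p = 0.00108) without overlap. Against untreated HSCs the change at day 10 was -0.18 (SE 0.18, adjusted p = 0.47), which did not pass.

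Cultured Skil values were spread, 37.9, 26.2, 57.6 and 52.5 CPM against 49.0, 72.2, 58.6 and 57.0 in uncultured libraries. The groups overlapped and the change of -0.43 (SE 0.21, adjusted p = 0.0803) did not pass, but it passed without cultured replicate 3 (-0.57, adjusted p = 0.0319). CD48+ HPCs were close together at 43.3, 41.5, 38.9 and 43.3 CPM, below the CD48- HSCs at 59.6, 57.1, 65.3 and 69.7, a log2 change of -0.58 (SE 0.10, adjusted p = 0.00219). Smad7 and Skil thus fell together at day 6 and in CD48+ HPCs and rose together from day 6 to day 10.

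Id1, the ID protein gene that BMP signalling is best known to raise (identifier 15901, chromosome 2, 152736234 to 152737410), had few reads in HSCs of untreated mice. It had 8 to 18 reads per untreated library and 3 to 12 per uncultured library. Untreated HSCs held 2.17, 2.29, 3.34 and 1.15 CPM and day-6 HSCs 11.9, 17.1, 18.7 and 13.7, so that the lowest day-6 library had more than 3 times the CPM of the highest untreated one. Id1 rose at day 6 by 2.79 (SE 0.28, adjusted p = 1.84e-06) on the log2 scale, a fitted fold of 6.91. Day-10 libraries ran from 5.04 to 8.11 (median 6.65) CPM, between both groups and overlapping neither. The change was 1.57 (SE 0.27, adjusted p = 0.000357) against untreated and -1.21 (SE 0.22, adjusted p = 0.00115) against day 6. CD48- HSCs of the separate CD48 experiment, also at day 10, held 2.83 to 4.51 CPM and overlapped the untreated range.

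Culture gave the highest Id1 level of the 7 groups. Uncultured libraries held 1.96, 1.78, 0.450 and 0.636 CPM and cultured ones 33.0, 33.8, 44.1 and 46.4, with 232 to 336 reads each. The log2 change was 5.04 (SE 0.31, adjusted p = 2.65e-08), a fitted fold of 33.0. Id1 was not called in CD48+ HPCs, where 8.65, 3.86, 2.78 and 3.83 CPM stood against 2.83, 2.96, 4.51 and 3.19 in CD48- HSCs. HPC replicate 1 was the highest, and the change of 0.51 (SE 0.39, adjusted p = 0.355) was 0.057 without it.

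Id2, known from lymphoid and myeloid differentiation (identifier 15902, chromosome 12, 25093799 to 25096092), did not pass after 5-FU. Its libraries held 8.84, 10.5, 18.9 and 10.8 CPM in untreated and 24.8, 10.7, 9.66 and 16.1 CPM in day-6 HSCs, and ran from 6.16 to 14.5 (median 12.0) CPM at day 10. The log2 change was 0.33 (SE 0.33, adjusted p = 0.432) at day 6, which was -0.012 without day-6 replicate 1, and -0.16 (SE 0.31, adjusted p = 0.714) at day 10. Within the 5-FU experiment the highest Id2 values were those of day-6 replicate 1, with a macrophage marker sum of 587 CPM against a group median of 153, and untreated replicate 3, the library with most granulocyte and monocyte markers. In culture Id2 went from 14.2, 14.5, 15.6 and 12.6 to 20.8, 20.5, 18.5 and 33.2 CPM without overlap, a rise of 0.72 (SE 0.19, adjusted p = 0.00505). That call was lost in a fit over all 30 libraries (adjusted p = 0.0963).

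In the CD48 experiment Id2 was at 9.44, 9.58, 13.8 and 9.57 CPM in CD48- HSCs and at 24.6, 16.4, 66.9 and 14.1 CPM in CD48+ HPCs. The groups did not overlap and the change was 1.53 (SE 0.44, adjusted p = 0.0239). HPC replicate 3 held the highest Id2 level of all 30 libraries together with the highest macrophage marker sum, 1378 CPM against a group median of 465, with all 12 markers above 0. Without it the change was 0.81 (adjusted p = 0.0331), and without the 3 libraries of this experiment with most transcripts of other cells it was 0.96 (adjusted p = 0.0387). The call was lost without CD48- HSC replicate 1 (adjusted p = 0.0640) or 4 (adjusted p = 0.0545). How much of the Id2 reads came from macrophages was not tested.

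Id3 (identifier 15903, chromosome 4, 136143822 to 136145392), a target of BMP in other tissues, had 0 to 32 reads per library. A count of 0 allows up to 3 counts, or 0.252 to 0.557 CPM in these libraries, for counting error only. It was at 0 in 3 of 4 untreated, day-6, uncultured and CD48- HSC libraries, in 3 of 6 day-10 libraries, and in 1 of 4 cultured and CD48+ HPC libraries. The highest Id3 value was 5.70 CPM in uncultured replicate 1 and the second 3.30 CPM in day-10 replicate 3. These libraries had the 2 highest sums of 6 stromal markers, 427 and 455 CPM against group medians of 40.2 and 24.4, with all 6 above 0; their part in the Id3 level was not tested. Of the Id3 reads 36.9% were unique, so that reads shared with similar sequences cannot be told apart. No comparison of Id3 was tested.

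**Figure D2:**
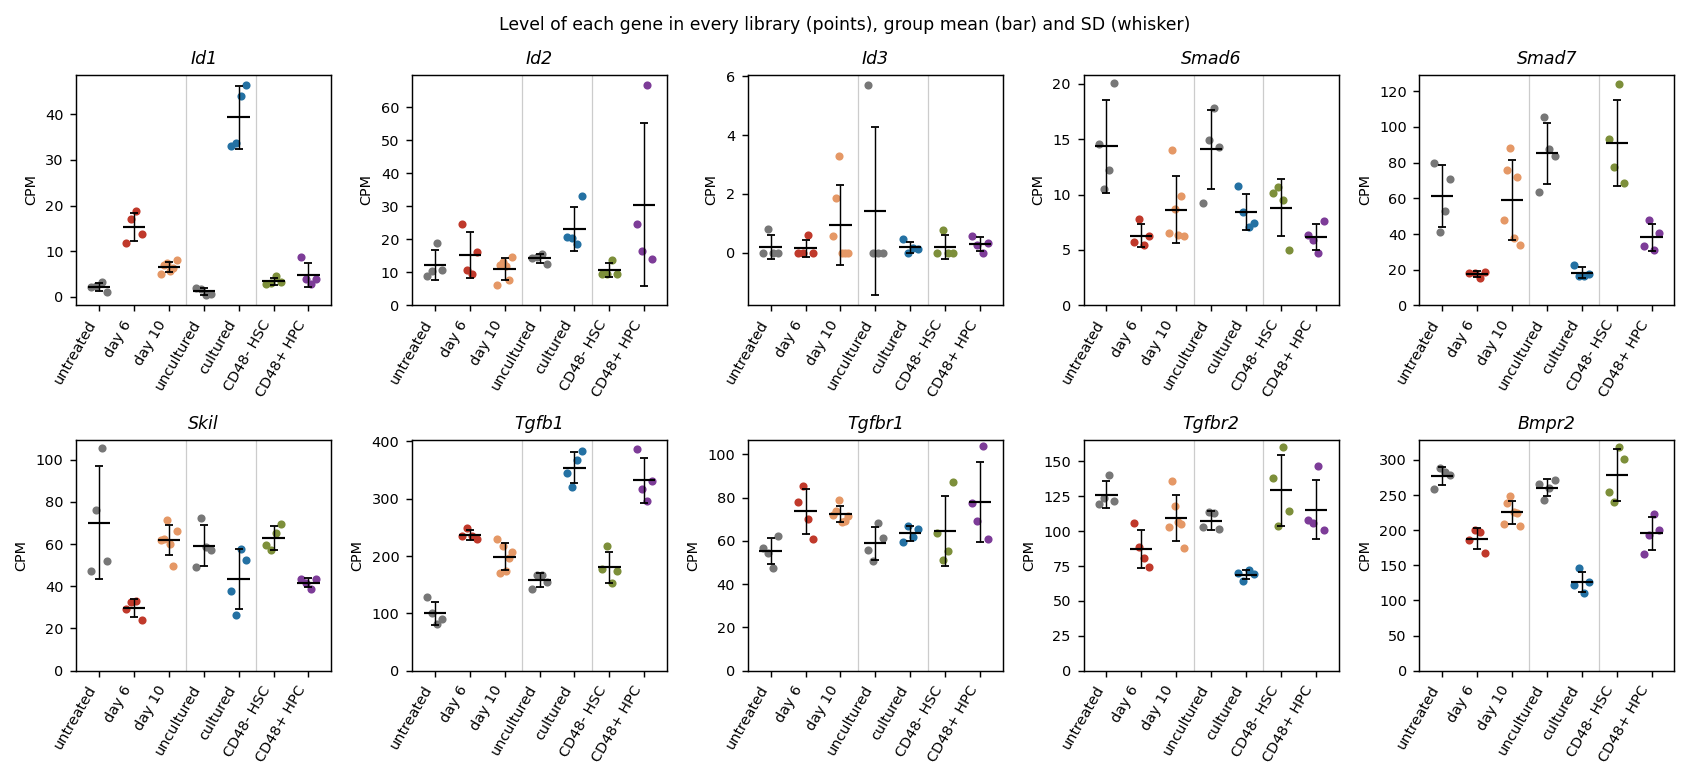
CPM (y axis) of each member in every library (points) of the 7 groups (x axis), with the group mean (bar) and SD (whisker); each panel has its own scale, and grey lines part the 3 experiments. Id1 in cultured HSCs runs from 33.0 to 46.4 CPM, and Smad7 in day-6 HSCs from 15.2 to 18.6 CPM.

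**Figure D3:**
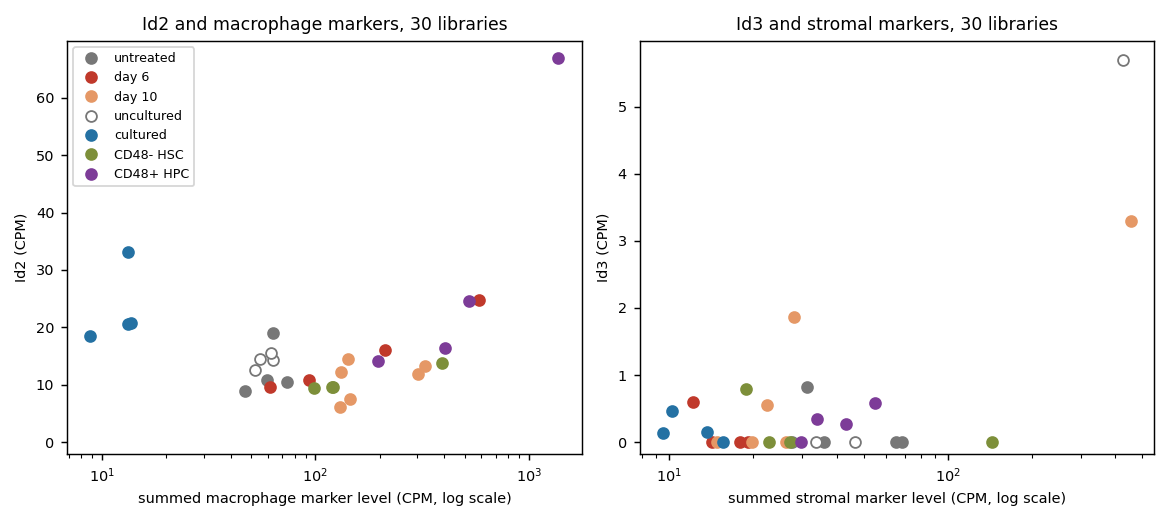
Id2 against the summed macrophage markers and Id3 against the summed stromal markers (x axes, CPM, log scale; y axes, CPM), one point per library in 7 groups. HPC replicate 3 is highest in both measures of the left panel, and in the right panel the libraries with 5.70 and 3.30 CPM of Id3 have stromal sums of 427 and 455 CPM.

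The effect of culture and that of day 6 come from experiments with no shared library, so their difference was tested in a fit over all 30 libraries. It passed for 2 of 9 members, against 15.1% of 13466 genes. Id1 rose more in culture than at day 6, with a difference of 2.23 (SE 0.51, adjusted p = 0.00292), and Bmpr2 fell more, with a difference of -0.48 (SE 0.13, adjusted p = 0.0137). Mean Id1 was 39.3 CPM in cultured and 15.3 in day-6 HSCs, and 1.21 CPM in uncultured and 2.24 in untreated HSCs. These controls held only 3 to 12 and 8 to 18 Id1 reads per library, and their part in the difference was not tested. For Skil the difference was 0.78 (SE 0.28, adjusted p = 0.0609), which did not pass, and it was called without untreated replicate 1 or 4, uncultured replicate 2 or cultured replicate 2 (adjusted p from 0.0141 to 0.0487) and by DESeq2 (adjusted p = 0.0371). The other 6 differences ran from -0.41 for Smad7 to 0.45 for Smad6, with SE from 0.17 to 0.53.

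The order of levels over the 7 groups was not the same for all members. For Id1 it ran from uncultured over untreated, CD48- HSC, CD48+ HPC and day 10 to day 6 and cultured, and only day 6 and cultured lay apart from the group next below. Tgfb1 ran from untreated, uncultured, CD48- HSC and day 10 to day 6, CD48+ HPC and cultured. Its neighbours overlapped between uncultured, CD48- HSC and day 10 and between CD48+ HPC and cultured. Smad7 was lowest at day 6 and in culture and highest in CD48- HSCs, and Skil was lowest at day 6 and highest in untreated HSCs. Tgfbr2 and Bmpr2 had the same 2 lowest groups, cultured and then day 6, and the same highest group, CD48- HSCs. Neighbours in the order of Tgfbr1, Smad6, Id2 and Id3 all overlapped. Day-10 HSCs of the 5-FU experiment and CD48- HSCs had the same gate and day in separate experiments. They held Id1 at 5.04 to 8.11 and 2.83 to 4.51 CPM, beside 1.15 to 3.34 in untreated HSCs. Bmpr2 was at 206 to 249 and 241 to 318 beside 259 to 289, and Tgfbr1 at 68.9 to 78.9 and 51.2 to 87.4 beside 47.5 to 62.1. Tgfb1 was at 171 to 229 and 153 to 218 beside 81.9 to 128. Of these members, whose day-10 and untreated libraries did not overlap, only Tgfb1 was apart from untreated HSCs in both sets.

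Per kilobase of exon, where genes can be compared with each other, Tgfb1 was the highest member in all 7 groups, from 46.1 CPM per kilobase in untreated to 163 in cultured HSCs. Id3 was the lowest in 6 groups, and in uncultured HSCs Id1 was lower, at 1.26 against 1.49 CPM per kilobase. The receptors Tgfbr2 and Bmpr2 were at 26.4 and 25.0 CPM per kilobase in untreated HSCs and Tgfbr1 at 8.97. Smad7 was at 13.8 and Smad6 at 4.79 in the same cells. Among the ID genes, Id2 was at 9.64 and Id1 at 2.34 CPM per kilobase in untreated HSCs, whereas Id1 at 41.1 stood above Id2 at 18.3 in cultured ones. At day 6 Id1 was at 16.0 and Id2 at 12.1 CPM per kilobase.

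Reads in introns come largely from unspliced RNA and were counted apart from exon reads. There were 7 members with enough intron reads for a test, while Id1 (0 to 12 intron reads per library), Id2 (0 to 82) and Id3 (0 to 6) did not; HPC replicate 3 held the 82 intron reads of Id2. The intron reads of Tgfb1 rose at day 6 (1.05, adjusted p = 7.42e-05), at day 10 (1.00, adjusted p = 0.000108), in culture (0.87, adjusted p = 0.000594) and in CD48+ HPCs (0.82, adjusted p = 0.00684). Those of Smad7 fell at day 6 (-1.29, adjusted p = 0.00184), in culture (-1.92, adjusted p = 0.000491) and in HPCs (-1.06, adjusted p = 0.00836) and rose from day 6 to day 10 (1.75, adjusted p = 0.000477). Skil had larger changes in intron than in exon reads at day 6 (-1.94, adjusted p = 6.85e-05) and in culture (-1.29, adjusted p = 0.0310). Uncultured replicate 2 held 1137 Skil intron reads against 304 to 384 in the others, and the intron change in culture was not fitted without it. Skil intron reads rose by 1.60 from day 6 to day 10 (adjusted p = 0.000569), and changed by -0.023 in HPCs (adjusted p = 0.975). Intron reads of Bmpr2 fell at day 6 (-0.54, adjusted p = 0.00302) and in culture (-1.12, adjusted p = 2.65e-05), and their change at day 10 was 0.017 against untreated (adjusted p = 0.933) and 0.56 against day 6 (adjusted p = 0.00303). For Smad6 at day 6 the intron change was -0.46 (adjusted p = 0.0864) beside -1.19 in exons, and at day 10 it was -0.32 (adjusted p = 0.221) beside -0.73. Intron reads of Tgfbr2 fell in culture (-0.67, adjusted p = 0.000643), and those of Tgfbr1 rose at day 10 (0.42, adjusted p = 0.00342). Whether exon and intron changes differ was not tested.

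**Figure D4:**
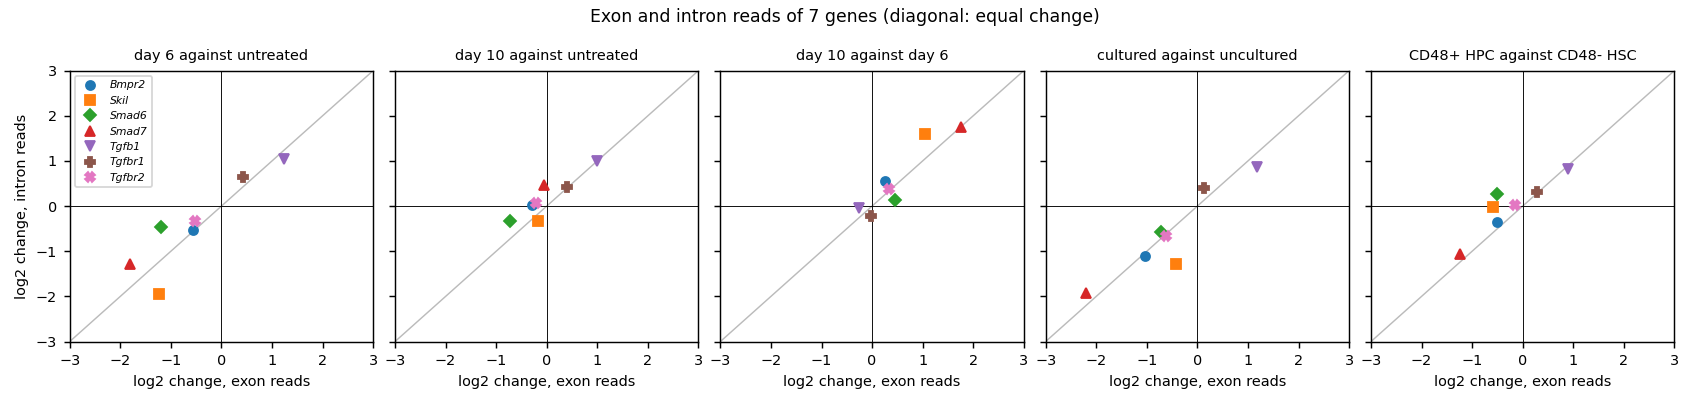
Log2 change in exon reads (x axis) and in intron reads (y axis) of the 7 members with enough intron reads, in the 5 comparisons; the diagonal marks equal change. Smad7 and Tgfb1 lie near the diagonal in most panels, and Skil lies below it at day 6 (-1.23 in exon and -1.94 in intron reads) and in culture (-0.43 and -1.29). The culture value of Skil includes uncultured replicate 2, with 1137 intron reads against 304 to 384 in the others.

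A list of 89 other genes of the pathway, in 7 roles, was read in the same fits, and 87 of them have exons in the files. At day 6, 7 of 61 tested genes rose and 25 fell, and at day 10 the counts were 12 and 17. From day 6 to day 10, 14 rose and 4 fell. In culture 6 of 56 rose and 39 fell, and in CD48+ HPCs 3 of 61 rose and 18 fell. The median log2 change of the list was -0.22 at day 6, -0.06 at day 10, 0.094 from day 6 to day 10, -0.44 in culture and -0.26 in HPCs. In the difference between the culture and day-6 effects, 2 of 66 were higher and 10 lower, against 6.36 and 8.77% of all genes. The shares of all genes called higher and lower were 25.7 and 25.7% at day 6, 19.9 and 18.1% at day 10, 14.7 and 16.0% from day 6 to day 10, 33.4 and 34.2% in culture and 14.0 and 12.5% in HPCs. The count in HPCs rests on single libraries, with 12 of the list called without HPC replicate 1 and 13 without replicate 3. Genes of ligands and their activation, such as the latent TGF-beta binding proteins, had no call upward at day 6 (9 of 17 fell), in culture (12 of 13 fell) and in HPCs (7 of 17 fell). In the same role 1 of 17 rose and 5 fell at day 10, and 5 rose and 0 fell from day 6 to day 10. This role was singled out after its values were seen.

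Fkbp1a, which encodes FKBP12, a protein that holds type I receptors inactive, rose at day 6 from 164 ± 4.87 to 451 ± 28.9 CPM (log2 change 1.46, adjusted p = 3.98e-07) and in culture from 173 ± 21.0 to 433 ± 1.47 CPM (1.34, adjusted p = 2.68e-08). Strap, a receptor-associated protein that works with SMAD7, rose at day 6 (1.01, adjusted p = 3.45e-06) and in culture (1.31, adjusted p = 1.32e-07), and both genes fell from day 6 to day 10 (Fkbp1a -0.57, adjusted p = 0.00128; Strap -0.47, adjusted p = 0.00257). In intron reads Strap rose by 0.45 at day 6 (adjusted p = 0.0232) and changed by -0.23 in culture and by 0.19 from day 6 to day 10, with neither of the latter past the threshold. Intron reads of Fkbp1a rose by 0.92 at day 6 (adjusted p = 8.07e-05) and by 0.45 in culture (adjusted p = 0.0354), and their change from day 6 to day 10 was -0.19 (adjusted p = 0.26). The rise of Strap in HPCs (0.45, adjusted p = 0.0337) was lost in intron reads (0.082, adjusted p = 0.775) and with the replicate block. It was also lost without the libraries with most transcripts of other cells (adjusted p = 0.119). Leaving out any one of 5 libraries (CD48- HSC replicate 1 or 3, HPC replicate 1, 3 or 4) lost it too, with adjusted p from 0.0545 to 0.105. Junb, an immediate early gene and TGF-beta target, fell at day 6 from 118 ± 54.4 to 16.3 ± 6.22 CPM (-2.86, adjusted p = 3.45e-06) and was at 88.6 ± 18.4 CPM (n = 6) at day 10 (2.44 against day 6, adjusted p = 6.55e-05). In culture Junb fell by 3.63 on the log2 scale (adjusted p = 0.000275), and by 2.35 (adjusted p = 6.16e-07) without uncultured replicate 2, which held 524 CPM against 72.5 to 89.4 in the others.

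Ltbp3, which tethers latent TGF-beta, fell at day 6 from 283 ± 25.1 to 89.2 ± 12.0 CPM (-1.66, adjusted p = 1.59e-06). At day 10 Tgfbi, a matrix protein gene induced by TGF-beta, rose from 32.9 ± 11.8 to 223 ± 53.5 CPM (n = 6; 2.76, adjusted p = 4.35e-06) and Acvr1b, an activin type I receptor gene, from 76.2 ± 18.1 to 157 ± 30.2 CPM (1.05, adjusted p = 0.000113). Ltbp4 fell by 2.10 (adjusted p = 5.05e-05) and Zfyve9, the SMAD anchor SARA, by 1.78 (adjusted p = 4.73e-05) on the log2 scale. Ltbp2 rose from day 6 to day 10 by 6.35 (adjusted p = 0.0114), and by 4.16 in intron reads (adjusted p = 0.0369). This rests in part on day-10 replicate 3 with 81.5 CPM against 1.26 to 4.97 in the others. The rise was 3.64 without it (adjusted p = 0.00686), and only through this library did Ltbp2 reach the mean of 10 CPM set for naming. Day-10 replicate 3, uncultured replicate 1 (31.3 CPM) and CD48- HSC replicate 4 (26.1 CPM) had the highest Ltbp2 levels. Those were also the libraries set apart by stromal markers, and the part of stromal cells in this rise was not tested. Thbs1, which activates latent TGF-beta, fell in culture by 6.52 (adjusted p = 0.00096), and by 4.30 (adjusted p = 0.000388) without uncultured replicate 2. That library held 58.6 CPM against 2.38 to 6.77 in the other uncultured ones, and only through it did Thbs1 reach the mean of 10 CPM. DESeq2 gave no adjusted p for Thbs1 and Junb in culture and for Ltbp2 from day 6 to day 10, with log2 changes of -6.61, -3.62 and 6.55. In CD48+ HPCs Acvr1b rose by 0.45 (adjusted p = 0.0189), while Inha, an inhibin subunit gene, fell by 1.95 (adjusted p = 0.00182) and Fstl1, a follistatin-like gene, by 0.92 (adjusted p = 0.000273). In intron reads the change in HPCs was 0.74 for Acvr1b (adjusted p = 0.000546) and -0.52 for Fstl1 (adjusted p = 0.0253).

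**Figure D5:**
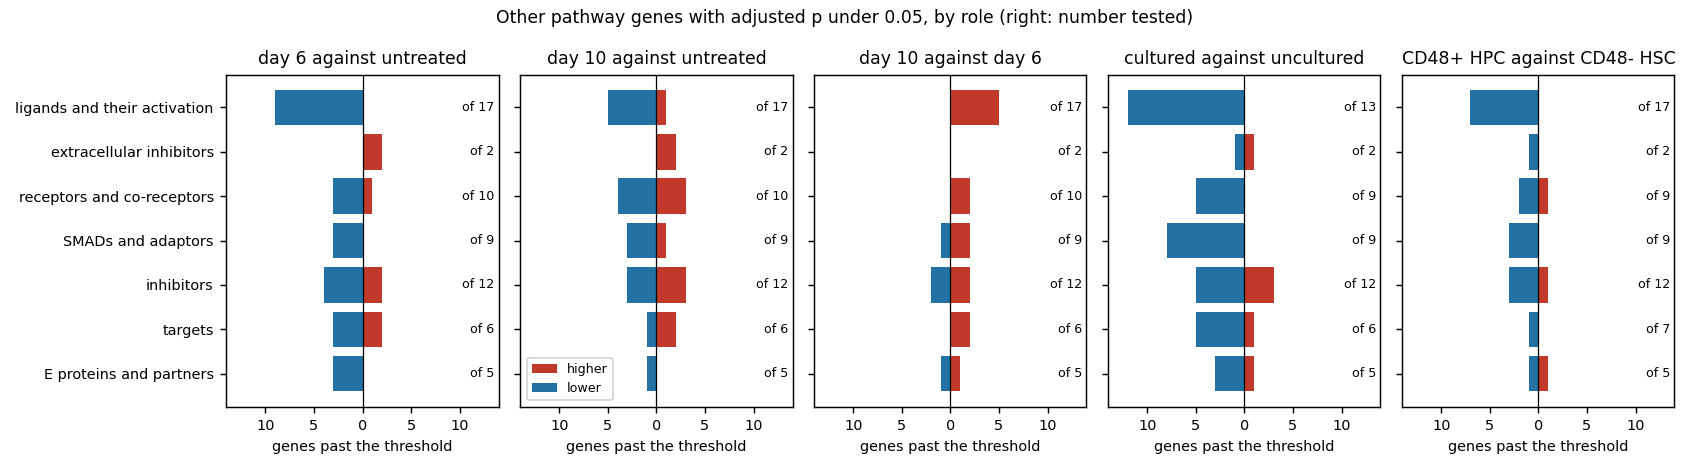
Number of genes of the pathway list with an adjusted p under 0.05 (x axis; higher to the right, lower to the left of 0) in each of 7 roles (y axis) and 5 comparisons, with the number tested at the right of each panel. In culture 12 of 13 tested ligand and activation genes were lower and 0 higher.

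The genes most like each ID gene in the 7 group means of log2(CPM + 1) were looked up among 9678 genes, as a description over 7 groups that share experiments and libraries. For Id1 they were Nxn (Pearson r = 0.997), Slc25a12 (0.994) and Car13 (0.990). From uncultured to cultured HSCs Nxn went from 24.7 to 39.6 CPM, Slc25a12 from 82.6 to 118 and Car13 from 12.0 to 65.6. The correlation takes no account of the size of a change. Most like Id2 were Slc16a10 (0.967), Grk6 (0.967) and Cdyl (0.945), and Slc16a10 was at 13.8 CPM in CD48- HSCs and 30.3 in CD48+ HPCs. The genes most like Id3 were Ccdc53 (0.993), Efr3b (0.940) and Daam1 (0.858), with Id3 itself near 0. Among the members, the group means of Id1 went against those of Bmpr2 (r = -0.916), Smad7 (r = -0.885) and Tgfbr2 (r = -0.883). Those of Smad6 went against Tgfbr1 (r = -0.917). Tgfbr2 went with Bmpr2 (r = 0.918) and Smad7 with Skil (r = 0.881). These were the member pairs with the largest r in size, and none was tested.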

How the data were processed

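RNA of 100 sorted cells per library was made into Nextera XT libraries and sequenced on a NextSeq, per the labels' protocols. Reads were mapped to mm10, per the submitters' processing notes; which aligner and counter were used, and whether strand was, is not given in the sources used here, so reads of overlapping antisense genes cannot be told apart. Per the file headers, the deposited files hold counts per gene as total exon, unique exon and total intron reads, not normalized. For total exon reads, genes kept by filterByExpr entered quasi-likelihood tests of group means with TMM scaling (edgeR 4.0.16, R 4.3.3), in 1 fit per experiment, with Benjamini-Hochberg adjustment over all genes and a threshold of 0.05. The fits were tested on simulated data. Depth was 5.21 to 12.2 M exon reads, and the limit for a count of 0 covers counting error alone (no molecular identifiers are named in the labels). No pair of libraries within a group was a duplicate (chi-square per degree of freedom 2.455 to 45.73), and pairs across groups were not checked. Other steps used Python 3.11.15, pandas 2.3.3 and matplotlib 3.10.9.

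All tested members are named in every comparison, and Id3 is given by its values. Of the pathway list, the 2 largest rises and the 2 largest falls past the threshold, with at least 10 CPM in the higher group, are named, and for each ID gene the 3 genes with the highest correlation of group means. The members and lists were chosen with earlier results of these data known. Other settings were DESeq2 1.42.0, RLE size factors, all genes without a filter, unique exon reads, intron reads, all 30 libraries in 1 fit, the 2 groups alone, the replicate number as a block and each library left out in turn. Leaving out the 7 libraries with most transcripts of other cells was added after seeing the data. Promoter windows are from RefSeq GRCm38.p6; 7 of the 10 members were found in that table.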

Additional observations from a re-analysis of the deposited data

Results flagged for a closer look

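Of 70 groups of values (10 members in 7 groups of libraries), 9 had 1 library whose gap to the nearest other was a large part of the group's range by Dixon's test at 95%, which chance gives in about 1 of 20 groups. In 4 of the 9, all of Id3, the other libraries were at 0, so that the gap is the whole range whatever the value, and only the other 5 can be read against that share. Id2 was at 33.2 CPM in cultured replicate 4 against 18.5 to 20.8 in the others, and at 13.8 CPM in CD48- HSC replicate 3 against 9.44 to 9.58. Smad7 was low in day-6 replicate 3, at 15.2 CPM against 18.1 to 18.6, and high in cultured replicate 1, at 22.8 CPM against 16.6 to 17.4. Tgfbr2 was at 147 CPM in CD48+ HPC replicate 3, the library with most macrophage markers, against 101 to 108 in the others. Id3 stood at 0.819 CPM in untreated replicate 2, 0.604 CPM in day-6 replicate 3, 5.70 CPM in uncultured replicate 1 and 0.790 CPM in CD48- HSC replicate 2, where the other libraries of each group were at 0.

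The culture effect and the day-6 effect differed for 2 members in a test of the difference (edgeR quasi-likelihood test with Benjamini-Hochberg adjustment). For Id1 the difference was 2.23 on the log2 scale (adjusted p = 0.00292), with all 4 cultured and all 4 day-6 libraries above their controls. For Bmpr2 it was -0.48 (adjusted p = 0.0137), with all 4 libraries of both groups below their controls.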

How the results depend on the processing

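Of 32 called member results, 21 kept their direction and stayed past the threshold under every alternative run on them. The Id1 results among these had no alternative with intron reads. Only 1 of the 32 changed sign under any alternative, Bmpr2 at day 10 with intron reads. Fewer genes passed in intron reads, with 3598 genes and 5 members at day 6 and 2444 genes and 2 members at day 10. From day 6 to day 10 it was 2315 genes, and in culture 26 pathway genes passed. CD48+ HPCs had 1594 genes, 2 members and 11 pathway genes, and the difference between culture and day 6 had 1 member. Id1 and Id2 were not tested in intron reads, so the lower member counts are not lost calls alone. In the difference Id1 was the untested one, and Bmpr2 passed (-0.58, adjusted p = 0.0298). How many genes were tested in intron reads is not given here, so these counts carry no share. Log2 changes that changed sign there were Bmpr2 (0.017), Tgfbr2 (0.066) and Smad7 (0.46) at day 10, Smad6 (0.27) and Tgfbr2 (0.021) in HPCs, and Smad6 in the difference between culture and day 6 (-0.11); the cause was not tested. Without the libraries with most transcripts of other cells, 11 pathway genes passed from day 6 to day 10 and 1998 genes and 10 pathway genes in HPCs, with fewer libraries in each fit, and Skil (0.044) and Id2 (0.064) changed sign at day 10.

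With single libraries left out, the count in HPCs ran from 2139 to 3465 genes and from 12 to 21 pathway genes. Changes that were not past the threshold and crossed 0 ran from -0.012 to 0.60 for Id2 at day 6, from -0.20 to 0.10 for Smad7, -0.33 to 0.083 for Skil and -0.29 to 0.12 for Id2 at day 10, from -0.10 to 0.056 for Tgfbr1 from day 6 to day 10, and, in the difference between culture and day 6, from -0.24 to 0.018 for Tgfb1 and -0.18 to 0.0010 for Tgfbr2. With the replicate number as a block, Smad7 at day 10 was at 0.015 and Tgfbr1 from day 6 to day 10 at 0.0013, and the day-10 call of Smad6 was lost (adjusted p = 0.0845). Same-numbered libraries did not deviate together (correlations of -0.21 to 0.14 over 20 pairs, 3 of them highest with their own number), so the numbers were not taken as pairs. The low counts of Id3 (0 to 32 reads) and of Id1 in untreated mice limit what can be said of them.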
